A study of Mus musculus with 12 samples.

Results

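The genes described here are 10 transcription factor and surface genes of primitive, visceral and definitive endoderm: Gata4, Gata6, Sox7, Sox17, Foxa2, Hnf4a, Hhex, Dab2, Amn and Cubn. They were taken by name, and each matched 1 of the 24015 gene rows in the 12 libraries. The libraries are bulk RNA from embryoid bodies, the suspension aggregates in which mouse embryonic stem cells begin to differentiate. There were 4 groups of 3 libraries each: Trim33-deficient bodies at day 2, control bodies at day 2, Trim33-deficient bodies at day 2.5 and control bodies at day 2.5. By the labels, all lines were derived from outbred embryos carrying the Trim33-flox allele on both chromosomes along with UbcCreERT2, a Cre recombinase that tamoxifen switches on and that the ubiquitin C promoter expresses in most cell types. They were used at passages 8 to 10, after feeder-free growth in medium with LIF and 2i. Deletion was begun by adding 4OH-Tamoxifen 24 hours into differentiation, which the labels call day 1. The genotype label of the control libraries is wildtype, and whether control cultures received tamoxifen is not given in the sources used here. Each library pools many bodies. The labels speak of independent pairs without tying them to replicate numbers, so the tests here weigh a difference against the spread among libraries, which may be partly technical.

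Primitive endoderm forms beside the epiblast in the blastocyst, where FGF signalling favours GATA6 and NANOG opposes it. GATA6, GATA4, SOX17 and SOX7 set up its programme. Its descendants are parietal endoderm, which lays down a basement membrane, and visceral endoderm, which takes up and secretes nutrients with HNF4A as a central regulator. Definitive endoderm arises later, from the primitive streak under Nodal signalling, and shares FOXA2, SOX17, HHEX and GATA factors with the extraembryonic tissues. Cubilin and amnionless form a receptor on the surface of visceral endoderm, and DAB2 is an adaptor that helps carry such receptors into clathrin-coated pits. TRIM33 is a ubiquitin ligase that binds SMAD proteins and chromatin in the Nodal and TGF-beta pathways.

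Libraries held 10066338 to 16529627 counts in genes, and 39.3 to 43.9% of the counted reads lay in genes. Trim33 averaged 66.0 ± 4.88 CPM (counts scaled by library size, with TMM factors) in Trim33-deficient bodies and 271 ± 8.55 CPM in control bodies at day 2, and 58.2 ± 4.23 CPM in Trim33-deficient bodies and 249.6 ± 12.8 CPM in control bodies at day 2.5 (SD, n = 3 each). It fell 4.09-fold at day 2 (adjusted p = 1e-11, edgeR) and 4.28-fold at day 2.5 (adjusted p = 6.35e-12, edgeR). The day 2 Trim33-deficient replicate 1 and the day 2.5 control replicate 2 stood apart: Rn45s, a ribosomal RNA gene, took 7.87% and 11.9% of their gene counts, against 0.609 to 1.67% in the other libraries. Day 2 control replicate 2 and, by less, day 2.5 Trim33-deficient replicate 3 also differed more from their replicates than those did from each other (chi-square per gene 10.1 and 6.51 against 2.76, and 6.23 and 3.95 against 2.07).

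At these days the 10 genes were at low to middling levels. Dab2 was the most abundant, with 156 to 428 counts per library, above 46.8% of the 14356 genes that passed the filter on low counts. Hhex had 62 to 128 counts and Gata4 50 to 119, levels above 27.7% and 26.2% of those genes. Cubn had 32 to 77 counts and Amn 13 to 46. Foxa2 had 5 to 24 counts, Gata6 5 to 19, Sox17 3 to 21, Hnf4a 2 to 17 and Sox7 1 to 9. With a count of 3, the floor used here, worth 0.178 to 0.318 CPM, the last 4 genes lay near the limit of what these libraries can show. Floors and Poisson intervals here cover counting error only. In bulk samples, fewer cells of a type and less RNA per cell cannot be told apart.

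Per kilobase of annotated exon, the levels in day 2.5 Trim33-deficient bodies ran from Dab2 at 2.46 CPM per kb through Gata4 at 1.75, Hhex at 1.63, Amn at 1.04, Foxa2 at 0.479, Sox17 at 0.214, Cubn at 0.197, Gata6 at 0.177, Hnf4a at 0.171 and Sox7 at 0.129 CPM per kb. In day 2.5 control bodies the order was Dab2 at 3.73 CPM per kb, Gata4 at 1.79, Amn at 1.60, Hhex at 1.09, Foxa2 at 0.378, Cubn at 0.245, Gata6 at 0.0765, Sox7 at 0.0678, Sox17 at 0.0593 and Hnf4a at 0.0553 CPM per kb. Neighbours closer than the sum of their SDs were Gata4 and Hhex, and each pair from Foxa2 down to Sox7, in the Trim33-deficient order. In the control order they were Gata4 and Amn, Foxa2 and Cubn, and each pair from Gata6 down to Hnf4a. These lengths are unions of all GENCODE exons, not the annotation the authors counted on, so the order depends on that choice.

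**Figure D1:**
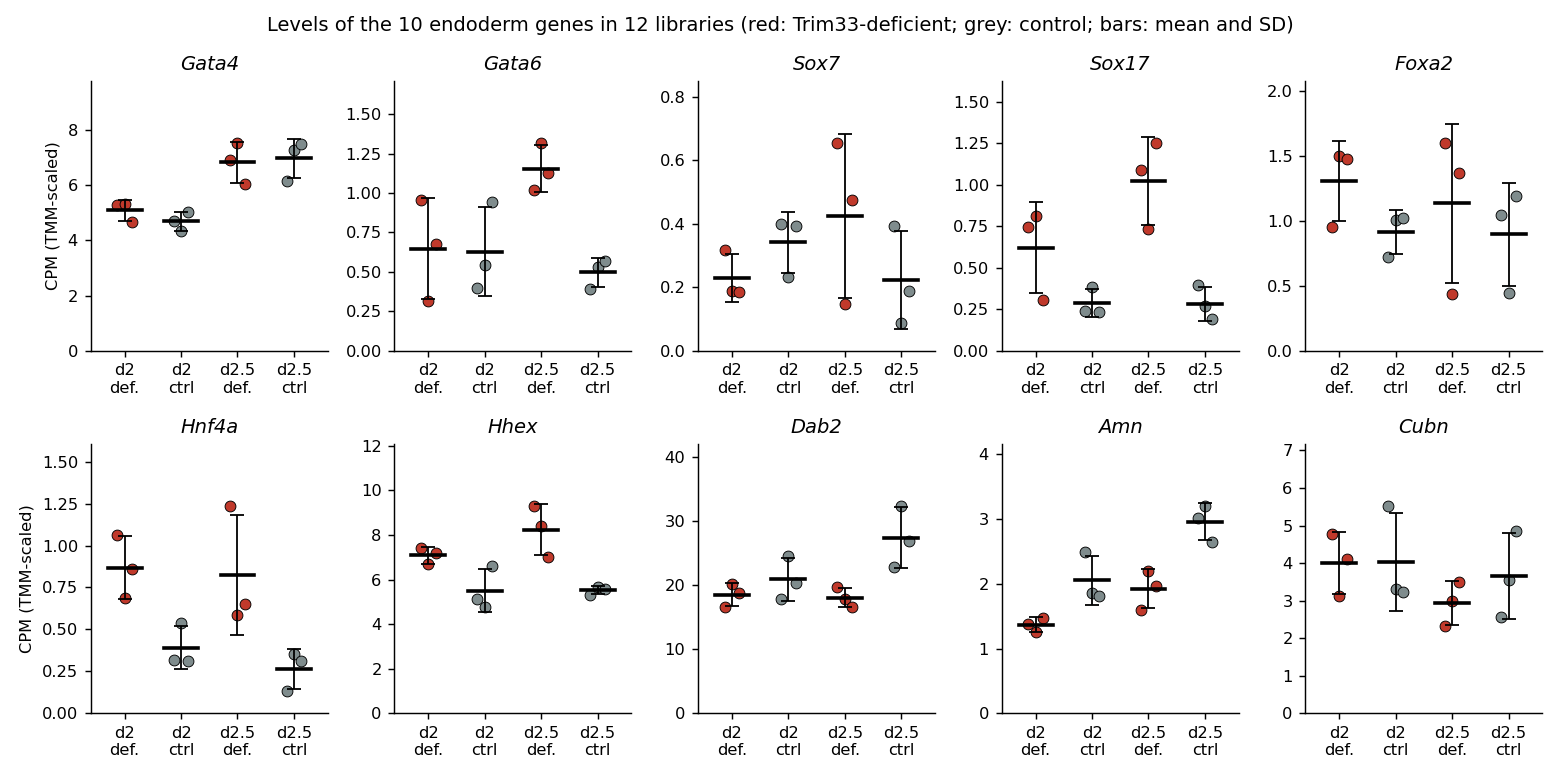
Level of each of the 10 genes in every library, in CPM, 1 panel per gene with its own vertical axis from 0; points are libraries, with Trim33-deficient groups left of their controls at each day, and bars are means with SD (n = 3). Gata6, Sox17, Hnf4a and Hhex lie higher, and Dab2 and Amn lower, in every day 2.5 Trim33-deficient library than in any day 2.5 control library.

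At day 2.5, the transcription factor genes Gata6, Sox17, Hnf4a and Hhex rose in Trim33-deficient bodies, and the uptake genes Dab2 and Amn fell. Gata4, Foxa2 and Cubn did not pass the test, and Sox7 was too low to be tested. The called genes thus stand at 6 of 9 tested, while 42.8% of all genes tested passed in this comparison, 22.0% rising and 20.7% falling. Among the 4837 genes with a mean under 10 CPM the share was 34.1%, 22.8% rising and 11.2% falling. Dab2, with a mean of 21.2 CPM, is outside that class. The median log2 fold change of the 9 was 0.30, beside -0.01 over all genes tested. Sox17 and Hnf4a reached the low-count filter's 0.748 CPM only in Trim33-deficient libraries. Gata6 reached it in Trim33-deficient libraries and in 1 day 2 control library. None of the day 2.5 control libraries reached it for Gata6, Sox17 or Hnf4a. Neither the 6 of 9 called nor the median of the 9 is therefore support for a change of the whole group. Without day 2.5 control replicate 1, 3 of the 9 passed, namely Sox17 and Hhex, which rose, and Dab2, which fell.

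Gata6 is a zinc finger factor that starts the primitive endoderm programme. At day 2.5 it had 14, 18 and 19 counts (1.02, 1.32 and 1.13 CPM) in Trim33-deficient replicates 1 to 3, against 6, 6 and 9 counts (0.394, 0.533 and 0.566 CPM) in control replicates 1 to 3. Every Trim33-deficient library lay above every control library, which was so for 26.7% of all genes tested. The sums were 51 counts (95% Poisson interval 38.0 to 67.1) in Trim33-deficient bodies and 21 counts (13.0 to 32.1) in control bodies. The rise was 2.30-fold (log2 1.20 ± 0.39 SE, adjusted p = 0.0206, edgeR). It did not pass with DESeq2 (adjusted p = 0.0678), nor after leaving out day 2.5 control replicate 1 (0.0720) or, instead, day 2.5 Trim33-deficient replicate 2 (0.0667). An antisense transcript, 1010001N08Rik, overlaps 93 bases of Gata6 exons and had at most 1 count in any library.

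Gata4, a relative of Gata6 that acts beside it in extraembryonic endoderm, was higher per kilobase and did not pass at day 2.5. It had 95, 103 and 102 counts (6.90, 7.53 and 6.07 CPM) in day 2.5 Trim33-deficient bodies, against 94, 82 and 119 counts (6.16, 7.28 and 7.49 CPM) in day 2.5 control bodies. The groups overlapped, with a log2 difference of -0.03 (95% interval -0.33 to 0.26, adjusted p = 0.871, edgeR). The interval leaves room for a change in either direction of less than the 2.30-fold estimated for Gata6.

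Sox17, a factor of both primitive and definitive endoderm, had the largest fold change of the 9 tested genes at day 2.5. It had 15, 10 and 21 counts (1.09, 0.731 and 1.25 CPM) in Trim33-deficient libraries, against 6, 3 and 3 counts (0.394, 0.266 and 0.189 CPM) in control libraries. The Trim33-deficient libraries were all higher, with sums of 46 counts (33.7 to 61.4) in Trim33-deficient bodies and 12 counts (6.20 to 20.96) in control bodies. Its log2 fold change was 1.84 ± 0.44 (SE, adjusted p = 0.00337, edgeR). The call held in all 20 alternatives run. The transcript Gm37587 shares 804 bases with Sox17 exons on the opposite strand, and since the strand setting of the counting is not given in the sources used here, reads of these genes cannot be told apart. Sox7, the closely related factor that follows Sox17 in parietal and visceral endoderm, had 9, 2 and 8 counts in day 2.5 Trim33-deficient bodies, against 6, 1 and 3 in day 2.5 control bodies. The groups overlapped, and Sox7 met the filter in no library; fitted without the filter its log2 fold change was 0.84 ± 0.61 (SE, adjusted p = 0.333, edgeR).

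Hnf4a, a nuclear receptor that visceral endoderm needs to make its secreted proteins, rose 3.07-fold at day 2.5 (log2 1.62 ± 0.47 SE, adjusted p = 0.0110, edgeR). Its counts were 17, 8 and 11 (1.24, 0.585 and 0.654 CPM) in Trim33-deficient libraries, against 2, 4 and 5 (0.131, 0.355 and 0.315 CPM) in control libraries. The groups did not overlap, and the sums were 36 counts (25.2 to 49.8) in Trim33-deficient bodies and 11 counts (5.49 to 19.7) in control bodies. Leaving out day 2.5 control replicate 1 ended the call (adjusted p = 0.0538), as did leaving out day 2.5 Trim33-deficient replicate 1 (0.0681), and with day 2.5 libraries alone Hnf4a did not meet the filter. Hhex, a homeobox gene of anterior visceral and definitive endoderm, had far more counts behind it. It had 128, 115 and 118 counts (9.30, 8.41 and 7.02 CPM) in Trim33-deficient libraries, against 81, 64 and 89 counts (5.31, 5.68 and 5.60 CPM) in control libraries. All Trim33-deficient libraries were above all control libraries, by 1.49-fold (log2 0.57 ± 0.15 SE, adjusted p = 0.00600, edgeR), and the call held in all 20 alternatives.

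The promoters of these 2 genes are shown because both genes rose; each is the 250 bases before an annotated start in RefSeq on GRCm38.p6, 5′ to 3′ on the gene's strand, with motif matches in capitals. Of the 10 genes, 6 had windows that were searched here: Amn, Cubn, Dab2, Foxa2, Hhex and Hnf4a. No window of the other genes was searched, so nothing is said here of their promoters. The motifs searched, on both strands, were GATA (the letters AGATAA, the letters AGATAG, the letters TGATAA or the letters TGATAG), FOXA (TGTTTAC), SOX (ACAATG), FOXH1 (TGTNNATT) and SMAD (CAGACA). They occur in 26.5%, 3.17%, 10.7%, 10.9% and 17.1% of 32851 RefSeq promoter windows of 250 bases. The upstream Hnf4a window, chr2:163506607-163506856 on the plus strand, holds a GATA match that begins 52 bases before the start. A second Hnf4a window, chr2:163546905-163547154, holds none of the letters searched. The Hhex window, chr19:37434591-37434840 on the plus strand, holds none of these letters and is 76.0% G and C.
Hnf4a: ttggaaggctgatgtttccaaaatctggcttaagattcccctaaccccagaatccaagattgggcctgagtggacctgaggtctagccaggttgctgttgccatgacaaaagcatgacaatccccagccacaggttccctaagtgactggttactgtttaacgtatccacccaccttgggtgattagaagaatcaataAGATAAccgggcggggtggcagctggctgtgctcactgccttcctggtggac
Hhex: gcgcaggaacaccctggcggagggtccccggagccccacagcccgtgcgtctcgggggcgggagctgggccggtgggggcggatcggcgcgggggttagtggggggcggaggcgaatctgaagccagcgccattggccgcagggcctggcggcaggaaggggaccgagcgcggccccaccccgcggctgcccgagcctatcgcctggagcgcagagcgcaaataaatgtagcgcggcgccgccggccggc

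Foxa2, a forkhead factor of visceral endoderm, definitive endoderm and node, had 22, 6 and 23 counts (1.60, 0.439 and 1.37 CPM) in day 2.5 Trim33-deficient libraries, against 16, 5 and 19 counts (1.05, 0.444 and 1.20 CPM) in day 2.5 control libraries. Replicate 2 was low in both groups, and the groups overlapped. The log2 difference was 0.30 with a 95% interval from -0.57 to 1.16 (adjusted p = 0.587, edgeR), an interval that takes in the estimates for Hhex and for no change at all.

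Of the 3 uptake genes, 2 fell at day 2.5 and 1 did not pass. Dab2, which links receptors to clathrin and is also a well-known marker of primitive endoderm, had 270, 244 and 280 counts (19.6, 17.8 and 16.7 CPM) in day 2.5 Trim33-deficient libraries, against 348, 364 and 428 counts (22.8, 32.3 and 26.9 CPM) in day 2.5 control libraries. Every Trim33-deficient library was below every control library, which held for 26.3% of all genes tested. Dab2 fell 1.51-fold (log2 -0.60 ± 0.13 SE, adjusted p = 0.00196, edgeR), and the call held in all 20 alternatives. A processed pseudogene, Gm18888, overlaps 211 bases of Dab2 exons on the opposite strand.

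Amn, the membrane anchor of the cubilin receptor, had 22, 30 and 33 counts (1.60, 2.19 and 1.96 CPM) in day 2.5 Trim33-deficient libraries, against 46, 36 and 42 counts (3.02, 3.20 and 2.64 CPM) in day 2.5 control libraries. The groups did not overlap, and Amn fell 1.53-fold (log2 -0.61 ± 0.20 SE, adjusted p = 0.0245, edgeR). This call was lost in 6 of 20 alternatives, among them DESeq2 (adjusted p = 0.0913), leaving out day 2.5 control replicate 1 (0.0586), day 2.5 control replicate 2 (0.0749) or day 2.5 Trim33-deficient replicate 1 (0.0949), and leaving out both libraries rich in Rn45s (0.0781). Cubn, the large ligand-binding subunit of the same receptor, had 32, 41 and 59 counts (2.33, 3.00 and 3.51 CPM) in Trim33-deficient libraries, against 39, 40 and 77 counts (2.56, 3.55 and 4.85 CPM) in control libraries. Its groups overlapped, with a log2 difference of -0.30 (95% interval -0.88 to 0.27, adjusted p = 0.387, edgeR), which takes in the estimate for Amn. A transcript on the opposite strand, Gm13270, shares 368 bases with Cubn exons.

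The promoter windows of the 2 genes that fell are given for comparison, on the same terms as above. The Dab2 window at the upstream start, chr15:6299539-6299788 on the plus strand, holds a FOXH1 match beginning 213 bases and a GATA match beginning 179 bases before the start. A second Dab2 window, chr15:6386498-6386747, holds FOXH1 letters 62 bases and SMAD letters 34 bases before its start. The Amn window, chr12:111270846-111271095 on the plus strand, holds none of the letters searched. Among the genes that did not pass, a Foxa2 window, chr2:148045465-148045714 on the minus strand, holds a GATA match beginning 183 bases before its start. The other Foxa2 windows and the Cubn window hold none of the letters searched. A match is a description of the sequence, not a binding site.
Dab2: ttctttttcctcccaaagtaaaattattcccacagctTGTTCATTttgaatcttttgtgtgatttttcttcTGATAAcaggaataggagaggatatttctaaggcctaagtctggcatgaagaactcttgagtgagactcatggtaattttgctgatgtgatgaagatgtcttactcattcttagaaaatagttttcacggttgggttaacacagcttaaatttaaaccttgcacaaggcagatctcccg
Amn: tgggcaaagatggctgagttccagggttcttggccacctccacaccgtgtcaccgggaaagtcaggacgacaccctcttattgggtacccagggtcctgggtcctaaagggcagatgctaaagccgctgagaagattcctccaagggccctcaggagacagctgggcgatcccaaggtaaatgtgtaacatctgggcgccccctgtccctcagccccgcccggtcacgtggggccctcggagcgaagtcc

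**Figure D2:**
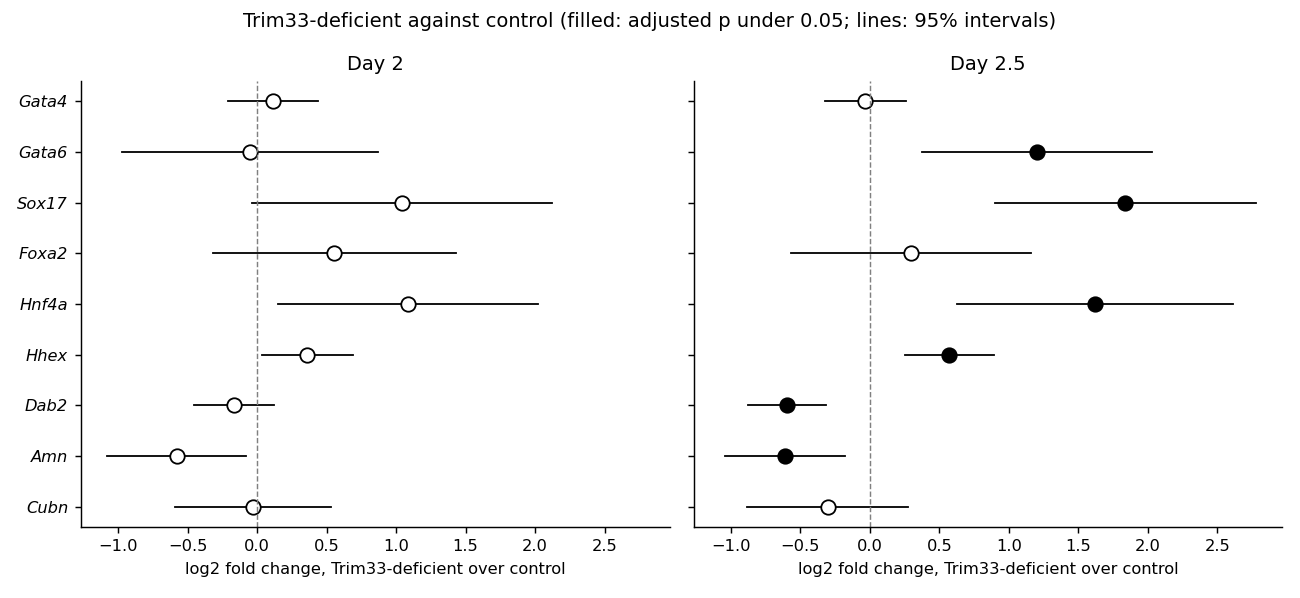
Log2 fold change of Trim33-deficient over control bodies for the 9 genes tested, at day 2 and at day 2.5; points are edgeR estimates, lines 95% intervals, and filled points have an adjusted p under 0.05. No point is filled at day 2; at day 2.5 Gata6, Sox17, Hnf4a and Hhex are filled above 0 and Dab2 and Amn below 0.

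At day 2, which by the labels is 1 day after tamoxifen, none of the 9 tested genes passed in edgeR, where 9.84% of all genes did (4.44% of those with a mean under 10 CPM). An unadjusted p under 0.05 was found for 3 of them, Hnf4a, Hhex and Amn, and DESeq2 called 0 of the 5 to which it gave an adjusted p. Those 3 were also the genes whose libraries did not overlap, against 29.4% of all genes tested. Hnf4a had 10, 11 and 14 counts (1.06, 0.687 and 0.860 CPM) in day 2 Trim33-deficient libraries, against 4, 7 and 4 counts (0.320, 0.541 and 0.315 CPM) in day 2 control libraries. That is a log2 difference of 1.09 ± 0.44 (SE, adjusted p = 0.136, edgeR), all Trim33-deficient libraries being higher. Hhex had 70, 107 and 117 counts (7.42, 6.68 and 7.19 CPM) in Trim33-deficient libraries, against 64, 62 and 84 counts (5.12, 4.79 and 6.61 CPM) in control libraries, a log2 difference of 0.36 ± 0.16 (SE, adjusted p = 0.158, edgeR). Amn had 13, 20 and 24 counts (1.38, 1.25 and 1.47 CPM) in Trim33-deficient libraries, against 31, 24 and 23 counts (2.48, 1.85 and 1.81 CPM) in control libraries. Its log2 difference was -0.58 ± 0.23 (SE, adjusted p = 0.135, edgeR).

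The other genes overlapped between the day 2 groups. Gata6 had 9, 5 and 11 counts in Trim33-deficient libraries, against 5, 7 and 12 in control libraries (log2 -0.05, adjusted p = 0.955, edgeR). Sox17 had 7, 13 and 5 counts in Trim33-deficient libraries, against 3, 5 and 3 in control libraries (log2 1.04 ± 0.51 SE, adjusted p = 0.220, edgeR). At such counts the intervals are wide: -0.97 to 0.87 for Gata6 and -0.04 to 2.12 for Sox17. Dab2 had 156, 322 and 306 counts (16.5, 20.1 and 18.8 CPM) in Trim33-deficient libraries, against 223, 317 and 259 counts (17.8, 24.5 and 20.4 CPM) in control libraries (log2 -0.17, adjusted p = 0.481, edgeR). Gata4, with 50, 85 and 76 counts in Trim33-deficient libraries and 59, 56 and 64 in control libraries, had a log2 difference of 0.11 (adjusted p = 0.701, edgeR). Foxa2 had 9, 24 and 24 counts in Trim33-deficient libraries, against 9, 13 and 13 in control libraries (log2 0.56, adjusted p = 0.437, edgeR). Cubn had 45, 50 and 67 counts in Trim33-deficient libraries, against 69, 43 and 41 in control libraries (log2 -0.03, adjusted p = 0.960, edgeR). Sox7 had 3 counts in each Trim33-deficient library, against 5, 3 and 5 in control libraries, at or near the floor throughout.

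Between the 2 days, 1 of the 9 tested genes, Gata4, passed in control bodies, and 3, Gata4, Dab2 and Amn, had an unadjusted p under 0.05. It averaged 6.98 ± 0.712 CPM in day 2.5 controls and 4.69 ± 0.353 CPM in day 2 controls (SD, n = 3 each), a rise of 1.48-fold (log2 0.57 ± 0.15 SE, adjusted p = 0.0155, edgeR). All day 2.5 controls were above all day 2 controls, as for 16.2% of all genes tested. Of all genes tested, 16.1% passed in this comparison, 8.20% rising. The Gata4 call was lost without day 2.5 control replicate 3 (adjusted p = 0.0677). Amn averaged 2.95 ± 0.282 CPM in day 2.5 controls and 2.05 ± 0.375 CPM in day 2 controls, without overlap, and its log2 difference of 0.52 ± 0.21 did not pass (SE, adjusted p = 0.103, edgeR). Dab2, whose groups overlapped, averaged 27.4 ± 4.76 CPM in day 2.5 controls and 20.9 ± 3.36 CPM in day 2 controls, a log2 difference of 0.38 ± 0.13 (SE, adjusted p = 0.0615, edgeR). The Dab2 result turned on single libraries: it passed when day 2 control replicate 2 (0.0146) or day 2.5 control replicate 1 (0.0171) was left out. With day 2.5 control replicate 3 left out, none of the 9 genes passed.

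In Trim33-deficient bodies, 0 of the 9 tested genes passed between the days in edgeR or in DESeq2, where 16.0% of all genes passed in edgeR. Gata4 and Gata6 had an unadjusted p under 0.05. Gata4 averaged 6.83 ± 0.734 CPM in day 2.5 and 5.09 ± 0.368 CPM in day 2 Trim33-deficient bodies, with a log2 difference of 0.42 ± 0.14 (SE, adjusted p = 0.0561, edgeR) close to that in controls. It passed without day 2.5 Trim33-deficient replicate 3 (log2 0.51, adjusted p = 0.0429). Gata6 averaged 1.15 ± 0.151 CPM in day 2.5 and 0.647 ± 0.322 CPM in day 2 Trim33-deficient bodies, a log2 difference of 0.92 ± 0.38 (SE, adjusted p = 0.111, edgeR). In controls the Gata6 difference between days was -0.34 with a 95% interval from -1.29 to 0.62. Dab2 averaged 18.0 ± 1.50 CPM in day 2.5 and 18.5 ± 1.81 CPM in day 2 Trim33-deficient bodies, a log2 difference of -0.05 (95% interval -0.34 to 0.24). Amn had a log2 difference of 0.49 ± 0.23 between the days in Trim33-deficient bodies (SE, adjusted p = 0.168, edgeR), close to that in controls. All its day 2.5 libraries were above all day 2 libraries, as for 19.3% of all genes tested.

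Whether the genotype difference itself changed between the days was tested as an interaction. In edgeR 0 of the 9 genes passed, where 4.01% of all genes did. DESeq2 called 0 of the 5 to which it gave an adjusted p. An unadjusted p under 0.05 was found for Gata6 (log2 1.26 ± 0.59 SE, adjusted p = 0.237, edgeR) and Dab2 (log2 -0.43 ± 0.19 SE, adjusted p = 0.209, edgeR). The calls at day 2.5 therefore do not show a difference from day 2 for any of these genes. For Hhex the interaction was 0.21 with a 95% interval from -0.25 to 0.67, and for Amn it was -0.03 with one from -0.72 to 0.65.

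**Figure D3:**
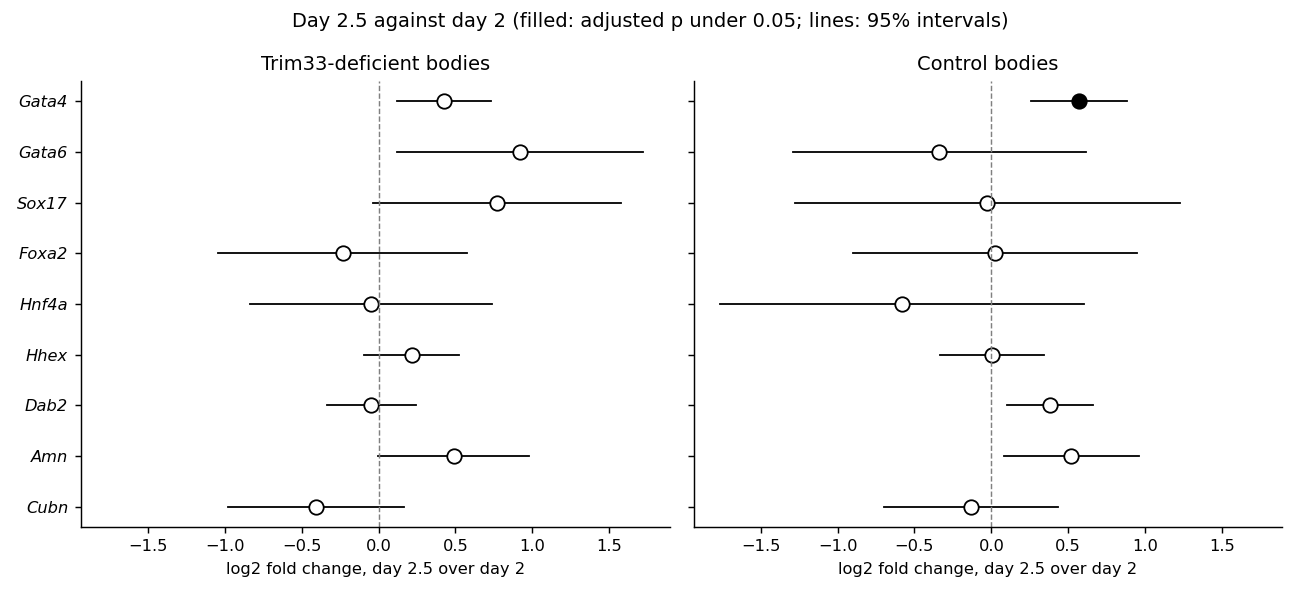
Log2 fold change of day 2.5 over day 2 for the 9 genes tested, in Trim33-deficient bodies and in control bodies; points are edgeR estimates, lines 95% intervals, and filled points have an adjusted p under 0.05. Gata4 in control bodies is the filled point, and the intervals of Gata6, Sox17, Foxa2 and Hnf4a are the widest.

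Other genes of the same tissues were described from lists, which also serve to check what the bodies held. Over all genes tested at day 2.5, 22.0% rose and 20.7% fell, the shares to set beside the counts of each list. Levels of visceral endoderm products differed widely. Afp, Ttr and Apoa1 each had 0 to 3 counts per library, Apoa4 0 to 1, Fgb 0 to 2, Fga 0 and Fgg 2 to 11. Apoe had 4524 to 14896 counts, Apoa2 62 to 147, Trf 66 to 124, Apob 32 to 84 and Rbp4 6 to 20. Of 19 listed visceral endoderm products in the files, 9 were tested at day 2.5, and 4 rose, 3 fell and 2 did not pass. Apoe, a lipid carrier made by many cell types, rose 2.23-fold, to 974 ± 102 CPM in Trim33-deficient bodies, against 437 ± 68.5 CPM in control bodies (adjusted p = 0.000502, edgeR). Apob, the structural protein of lipoproteins, rose 1.64-fold (adjusted p = 0.0116), and Trf, the iron carrier transferrin, 1.38-fold (adjusted p = 0.0150, edgeR). Leaving out day 2.5 Trim33-deficient replicate 1 ended both of these calls, as did day 2.5 control replicate 3 for Apob and day 2.5 control replicate 1 or Trim33-deficient replicate 2 for Trf (adjusted p up to 0.0615 and 0.0609). Cldn6, a tight junction gene of early epithelia, fell 1.54-fold (adjusted p = 0.00222, edgeR). Rbp4 and Furin also fell, with log2 fold changes of -1.24 to -0.785 and -0.596 to -0.278 over the alternatives. Apoa2 also rose, with 0.451 to 0.728. The calls of Rbp4, Furin and Apoa2 were lost in 6, 5 and 4 of 20 alternatives. The median of the 9 was 0.47 on the log2 scale. Cer1, a Nodal antagonist of anterior visceral endoderm, had 0 to 2 counts. Of 4 tested genes in that anterior list, Lefty1 rose 1.91-fold and Otx2 and Sfrp1 fell 2.63-fold and 1.62-fold (adjusted p = 9.15e-05, 0.00599 and 1.74e-06, edgeR). Lefty1 and Otx2 are also epiblast genes.

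Of 13 other tested primitive endoderm genes, 4 rose, 1 fell and 8 did not pass at day 2.5, with a median log2 fold change of -0.01. Nid1, a basement membrane linker, averaged 47.6 ± 2.49 CPM in Trim33-deficient bodies and 23.0 ± 3.92 CPM in control bodies (SD, n = 3 each) and rose 2.08-fold (adjusted p = 8.09e-05, edgeR). Lamc1, a laminin chain, rose 1.71-fold, Sparc, a collagen-binding protein, 1.53-fold, and Nid2 1.23-fold (adjusted p = 0.000451, 0.000144 and 0.0127, edgeR). The Nid2 call was lost without day 2.5 control replicate 3 or without Trim33-deficient replicate 3 (adjusted p up to 0.0597). Col4a1, a chain of the collagen IV of the same membrane, fell 1.49-fold (adjusted p = 4.97e-05, edgeR). Other chains of laminin and collagen IV did not pass: Lama1 had a log2 difference of -0.16, Lamb1 of -0.01 and Col4a2 of -0.21 (adjusted p = 0.246, 0.892 and 0.197, edgeR). Of 7 tested parietal endoderm genes, Krt8, Snai1, Vim and Fbn1 rose and 3 did not pass, with a median of 0.51. Krt8, an epithelial keratin, rose 2.15-fold and Snai1, a repressor of epithelial genes, 2.35-fold (adjusted p = 3.94e-06 and 8.64e-05, edgeR). The Fbn1 call was lost in 12 of 20 alternatives (adjusted p up to 0.150). None of these 4 is restricted to endoderm.

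Among 11 other tested definitive endoderm genes, 2 rose, 4 fell and 5 did not pass at day 2.5. Eomes, the T-box factor upstream of definitive endoderm, fell 1.99-fold, to 11.1 ± 2.54 CPM in Trim33-deficient bodies, against 22.1 ± 4.04 CPM in control bodies (adjusted p = 0.000183, edgeR). Trh, a hormone precursor seen in early endoderm, fell 3.00-fold and Gsc, a homeobox gene of anterior streak, 3.11-fold (adjusted p = 4.1e-05 and 0.00870, edgeR). Prdm1, a repressor shared with germ cells and visceral endoderm, rose 1.90-fold (adjusted p = 0.000114, edgeR). The median of the 11 was -0.29 on the log2 scale.

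Relatives and cofactors of the transcription factors showed 5 rising, 0 falling and 6 not passing of 11 tested at day 2.5, with a median of 0.74. Nr5a2, a nuclear receptor of pluripotent and endodermal cells, averaged 12.4 ± 0.735 CPM in Trim33-deficient bodies and 3.97 ± 1.23 CPM in control bodies (SD, n = 3 each) and rose 3.06-fold (adjusted p = 0.000151, edgeR). Gata3 rose 3.30-fold, Foxa1 1.67-fold and Dab1 1.67-fold (adjusted p = 0.000703, 0.0101 and 0.000181, edgeR). Foxa1 did not pass without day 2.5 Trim33-deficient replicate 1 (adjusted p = 0.0625). Gata3 belongs to the trophoblast list too, and Foxa1 to the definitive endoderm list. Among the GATA genes tested, Gata6 and Gata3 rose, while Gata1 (log2 0.80, adjusted p = 0.0905, edgeR), Gata2 (log2 0.56, adjusted p = 0.0931) and Gata4 did not pass. Of the Foxa genes, Foxa1 rose, and Foxa2 and Foxa3 (log2 -0.41, adjusted p = 0.188, edgeR) did not pass. Dab1 rose and Dab2 fell. Differences between family members were not tested.

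Endocytic partners of the uptake genes are the proteins of coated pits and their cargo receptors. Of 16 tested, 8 rose, 0 fell and 8 did not pass at day 2.5, with a median log2 fold change of 0.19. Of all genes tested, 42.8% passed, 22.0% rising and 20.7% falling. Several of the partners are abundant, and small changes can pass at such counts: Cltc had 8146 to 15742 per library. Cltb, a clathrin light chain, rose 1.74-fold, Lrpap1, a chaperone of endocytic receptors, 1.29-fold, and Cltc, the clathrin heavy chain, 1.18-fold (adjusted p = 0.000214, 0.00191 and 0.00450, edgeR).

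In the list of epiblast against primitive endoderm choice, 3 of 11 rose, 3 fell and 5 did not pass at day 2.5, with a median of 0.06. Nanog, which opposes Gata6 in the blastocyst, fell 2.40-fold, to 75.7 ± 6.54 CPM in Trim33-deficient bodies, against 182 ± 23.5 CPM in control bodies (adjusted p = 7.6e-05, edgeR). It had also fallen at day 2, 1.50-fold (adjusted p = 0.0353, edgeR), a call lost in 8 of 20 alternatives (adjusted p up to 0.123). Among genes of FGF signalling, Fgfr2, a receptor, rose 1.63-fold and Frs2, a docking protein of the receptors, 1.49-fold, while Fgfr1 fell 1.20-fold and Ptpn11, a phosphatase of the pathway, 1.14-fold (adjusted p = 0.000242, 2.06e-06, 0.000159 and 0.00786, edgeR).

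**Figure D4:**
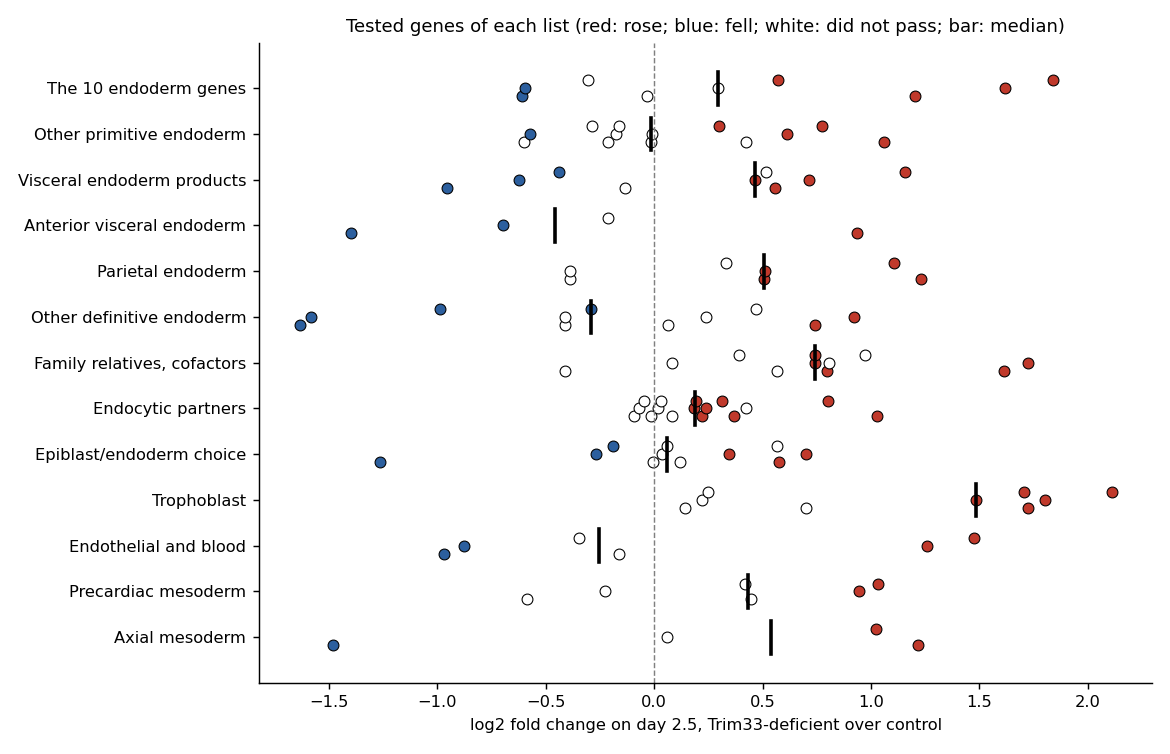
Log2 fold change at day 2.5, Trim33-deficient over control, of every tested gene in the 10 described genes and in 12 other lists; each point is a gene, red where it rose and blue where it fell at an adjusted p under 0.05 and white otherwise, and bars are list medians. Coloured points lie on both sides of 0 for the described genes and for the primitive, visceral and definitive endoderm lists, while no gene of the lists of parietal endoderm, relatives, endocytic partners, trophoblast or precardiac mesoderm is blue.

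Several of the 10 genes also mark other tissues, so markers of those tissues are given beside them. At day 2.5 the trophoblast list had 5 of 9 tested genes rising and 0 falling, beside 22.0% and 20.7% of all genes tested. Cdx2, Krt7, Tead4 and Esx1 did not pass, and Elf5, at 0 to 2 counts per library, was not tested. The summed level of the list was 63.9 to 71.0 CPM in Trim33-deficient libraries, against 23.6 to 30.01 CPM in control libraries. Its most abundant genes were Ascl2 and Tfap2c, at 11.5 and 10.2 CPM on average over the 12 libraries. Tfap2c rose 4.32-fold (adjusted p = 5.38e-07, edgeR), and had risen 2.51-fold at day 2 (adjusted p = 0.000887, edgeR). The endothelial and blood list, tissues that use Sox17, Sox7 and Hhex, had 2 of 6 rising, 2 falling and 2 not passing. Its summed level was 101 to 128 CPM in Trim33-deficient libraries, against 53.3 to 61.2 CPM in control libraries. Most of that sum was Pecam1, at 80.6 ± 12.4 CPM in Trim33-deficient bodies and 33.8 ± 3.52 CPM in control bodies (SD, n = 3 each). Tek and Pecam1 rose 2.78-fold and 2.39-fold and Etv2 and Lmo2 fell 1.96-fold and 1.84-fold (adjusted p = 2.92e-06, 5.51e-05, 0.00368 and 0.00137, edgeR), and Emcn was at 0 in all libraries. Precardiac mesoderm, which uses Gata4 and Gata6, had Tbx20 and Mesp2 rising of 6 tested (Mesp2 lost its call when day 2.5 control replicate 3, or Trim33-deficient replicate 2 of that day, was left out), with summed levels of 15.5 to 17.2 CPM in Trim33-deficient libraries and 11.4 to 14.1 CPM in control libraries. Axial mesoderm, which uses Foxa2, had Chrd and Foxj1 rising and T falling of 4 tested. Summed levels of that list were 26.2 to 29.9 CPM in Trim33-deficient libraries and 14.4 to 17.3 CPM in control libraries. Chrd and Foxj1 made up most of the sum, at 12.6 and 6.72 CPM on average over the 12 libraries. Noto had 0 to 3 counts per library, Shh 0 to 2 and Nog 1 to 9. The medians of these 4 lists were 1.49, -0.26, 0.43 and 0.54 on the log2 scale. The part of these tissues in the changes of the 10 genes was not tested. The lists overlap in Gata3 and Foxa1, and many of their genes are active in stem cells as well.

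Genes whose profile over the 12 libraries was most like that of a called gene were found by the root mean square difference of centred log2 CPM. Among those nearest to Dab2 were Tpm2 (0.0904) and Raver2 (0.0949). Nearest to Hhex were Arhgap44 (0.0907), AI414108 (0.107) and Nceh1 (0.109), and nearest to Amn were Col1a1 (0.139), Hist3h2ba (0.142) and Col4a1 (0.157). The low genes had looser matches: Pcp4l1 (0.250), Arntl2 (0.262) and Lor (0.268) for Gata6, Mfsd7c (0.287), Fry (0.292) and Pclo (0.308) for Sox17, and Tmem151a (0.238), Artn (0.255) and Gna15 (0.260) for Hnf4a. These are likenesses among 12 libraries that share their groups and differ in depth, given as description.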

How the data were processed

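RNA of 12 libraries, 3 in each of 4 groups, was analysed from the deposited raw counts per gene symbol, 1 file per library. The authors made the counts with STAR and HTSeq (build mm9, with DESeq also named), per the submitters' processing notes. Versions, annotation and strand setting: not given in the sources used here. The closing rows of each file, which name no gene, held 55.9 to 60.5% of reads as no feature and 0.144 to 0.189% as ambiguous and were left out. In day 2.5 Trim33-deficient replicate 1, 27 gene names turned into dates were restored by row position; none was among the 10 genes.

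Of 24015 rows, 19581 had a count and 14356 passed filterByExpr. A quasi-likelihood fit (edgeR 4.0.16, R 4.3.3, TMM, robust, 4 group means, 12 libraries, 8 residual degrees of freedom) gave p-values adjusted by Benjamini-Hochberg over the genes tested. The threshold was an adjusted p of 0.05, and the 5 comparisons were genotype at each day, day in each genotype, and their interaction. CPM values use TMM library sizes, and log2 CPM a prior count of 2. Exon lengths are from GENCODE M21 on GRCm38.

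The 10 genes and all lists were chosen with earlier results of these data known. Genes named are the 10, from each list up to 4 with the smallest adjusted p at day 2.5 and up to 2 at day 2, the 3 most alike to each called gene, and Trim33; a few genes that this rule names are not reported here. Other genes with too few counts to be tested, other members of a list and Emcn were named after their values were seen, to complete a count. The fit was checked on simulated data. Alternatives were RLE and upper-quartile factors, no filter, DESeq2 1.42.0, only the groups compared, a replicate block, and each library left out. Leaving out both Rn45s-rich libraries, or these and day 2 control replicate 2, was added after seeing the data.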

Additional observations from a re-analysis of the deposited data

Results flagged for a closer look

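None of the 9 tested endoderm genes passed the test of whether the genotype difference changed between the days. Among the genes of the other lists reported here 11 did, at an adjusted p under 0.05 in edgeR; each value is the log2 difference of Trim33-deficient over control at day 2.5 minus that at day 2. Of all genes tested, 4.01% passed this test, and these genes are given as values only. The interaction was positive for Ascl2 (1.37, adjusted p = 0.0294, edgeR), Snai1 (1.09, adjusted p = 0.0385), Nid1 (0.96, adjusted p = 0.0245), Pecam1 (0.90, adjusted p = 0.0375), Tek (0.84, adjusted p = 0.0439), Krt8 (0.82, adjusted p = 0.0231) and Frs2 (0.30, adjusted p = 0.0462). It was negative for T (-1.72, adjusted p = 0.0373, edgeR), Trh (-1.15, adjusted p = 0.0274), Sfrp1 (-0.51, adjusted p = 0.0113) and Fgfr1 (-0.24, adjusted p = 0.0445). Of these calls, that of Sfrp1 held in all 19 alternatives run. The others were lost in some: Pecam1, Tek and Fgfr1 in 10, Snai1 and Frs2 in 9, T and Trh in 7, Nid1 in 6, Krt8 in 5 and Ascl2 in 4, with adjusted p up to 0.140, and none changed sign.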

How the results depend on the processing

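At day 2.5, the calls of Sox17, Hhex and Dab2 held under all 20 alternatives, and the losses of Gata6, Hnf4a and Amn stand beside their values. No call of the 10 genes reversed in any comparison, and at day 2 the count was 0 under every alternative. Leaving out 1 library at a time, the 10 genes gave 3 to 6 calls at day 2.5, 0 to 1 between days in Trim33-deficient bodies and 0 to 2 between days in control bodies. Without the 3 libraries that stood apart, an alternative added after seeing the data, there were 2 calls between days in Trim33-deficient bodies, Gata4 (log2 0.45, adjusted p = 0.0494, edgeR) and Gata6 (log2 1.21, adjusted p = 0.0455), and 1 interaction, Dab2 (log2 -0.50, adjusted p = 0.0352). In that alternative Gata4 between days in controls did not pass (adjusted p = 0.0802) and Dab2 did (0.0231). The cause was not tested.

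Counts over all genes moved more. At day 2 they were 1413, 514 to 1617 with 1 library left out, and 814 without both Rn45s-rich libraries. Between days they were 2300 in Trim33-deficient bodies, 1101 to 2780 with 1 left out and 3741 without the 3 libraries, and 2313 in control bodies, 1235 to 2393 with 1 left out and 1384 with only the groups compared. The interaction gave 575, 119 to 1217 with 1 left out, 1169 with the block and 1967 without the 3 libraries.

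Replicate numbers were not taken to pair the libraries: deviations of same-numbered Trim33-deficient and control libraries correlated at -0.08 to 0.17 at day 2 and -0.03 to -0.01 at day 2.5. Across the days, same-numbered control libraries correlated at 0.03 to 0.45, with 2 of 3 day 2 controls best with their own number, and Trim33-deficient ones at -0.02 to 0.18. With the replicate block, control bodies gave 2 calls between days, since Dab2 also passed (log2 0.38, adjusted p = 0.0165, edgeR), and it changed no other call of the 10 genes. At 1 to 21 counts per library, depth limits what can be seen of Gata6, Sox7, Sox17 and Hnf4a, and Foxa2 at 5 to 24 counts.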
